A study of Mus musculus with 12 samples.

Results

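The 45S ribosomal RNA locus (Rn45s) was followed as an interaction anchor in Hi-C, which records contacts between all parts of the genome, and in HiChIP with antibodies against FGFR1 and CTCF, which keeps contacts bound by the protein named. The anchor was chosen by its Hi-C strength: every interaction with an end overlapping mm10 chr17:39842000-39850000 was taken, and this gave 1 anchor per library, of 248300 anchors in ESC Hi-C and of 168031 to 246179 in the other 5 libraries. The cells were E14Tg2A mouse ESC kept with 100 U/mL LIF, and NCC, the neuronal committed cells made from them by withdrawing LIF and adding retinoic acid (1 μM) over 48 h. Both cell types were assayed in 3 ways with 2 biological replicates each, and the replicates are merged in the tables, which leaves 6 pooled libraries. No error between replicates can be given, the 95% intervals cover counting error only, and each test compares pooled libraries or read pairs and not the cell types. The libraries hold 20790622 read pairs in ESC Hi-C and 21279750 in NCC Hi-C, 2679131 and 3232003 in FGFR1 HiChIP, and 1226039 and 1065662 in CTCF HiChIP. No RNA was measured in these libraries, and therefore the cell types could not be checked against marker genes.

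Ribosomal DNA encodes the 45S precursor of the 18S, 5.8S and 28S ribosomal RNAs, which RNA polymerase I transcribes from long arrays of near-identical units. In the mouse, the arrays lie close to the centromeres of chromosomes 12, 15, 16, 18 and 19, and which of them carry arrays differs between strains. Active arrays form the nucleolus, and silent, gene-poor and centromere-near chromatin gathers around it. The arrays are not part of the assembled chromosomes, so that reads from all copies of a 45S sequence are placed at the few positions of the build that hold it. Mouse chromosomes have the centromere at one end, and thus distance from the chromosome start is distance from the centromere.

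In the GENCODE annotation of GRCm38, the anchor (chr17:39842464-39849607 in both Hi-C libraries) covers a run of RNA genes from 39843013 to 39848827. These are the lincRNA genes Gm26917 (39843013-39846341, plus strand), Gm42418 (39846958-39848788, plus strand) and AY036118 (39847113-39848035, minus strand), and the rRNA gene CT010467.1 (39846353-39848827, minus strand). No symbol Rn45s is listed at this place in the annotation used here. On chromosomes 1 to 19 and X, the 45S anchor held 27693 read-pair ends in ESC Hi-C and 25030 in NCC Hi-C, which is 0.0667% and 0.0590% of all ends. The next strongest anchor, at Gm10800 and Gm10801 on chromosome 2, held 5665 and 7294. These values chose the locus and are given as a description. In the HiChIP libraries, which the choice did not use, the 45S anchor held 4375 ends in ESC FGFR1, 5748 in NCC FGFR1, 2226 in ESC CTCF and 2506 in NCC CTCF HiChIP. It was the strongest anchor in each of these 4 libraries too, with the next one at 1274, 1469, 1429 and 793 ends.

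Some of the strongest partners share sequence with the 45S locus or with each other, and these stretches are shown first. A BLAST search of the 5815 bases between 39843013 and 39848827 found 51 matches of at least 50 bases on the 20 chromosomes outside the 100-kb zone around the locus, and 2 of the 30 strongest partner loci carried one. The strongest partner of all, chr6:3199753-3202193, holds a match of 901 bases with 98.2% identity to 39846681-39847581, a part of the 18S region. The stretch of 100 bases with the most differences is shown, from chr17:39847426-39847525 and chr6:3201515-3201614 (both plus strand). The capitals mark the 8 bases of the partner that differ from the 45S locus.
45S locus: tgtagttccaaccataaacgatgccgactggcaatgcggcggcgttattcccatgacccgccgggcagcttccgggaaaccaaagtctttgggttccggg
Partner on chromosome 6: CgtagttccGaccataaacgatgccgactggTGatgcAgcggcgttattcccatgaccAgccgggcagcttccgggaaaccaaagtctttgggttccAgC

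The partner chr8:3753550-3755871 holds a shorter and more diverged match of 378 aligned bases with 83.3% identity. Here the stretch is from chr17:39847869-39847968 (plus strand) and chr8:3754583-3754682 (minus strand), with 11 differing bases in capitals.
45S locus: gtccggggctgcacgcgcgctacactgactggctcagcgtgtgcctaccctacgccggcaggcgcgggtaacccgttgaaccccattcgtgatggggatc
Partner on chromosome 8: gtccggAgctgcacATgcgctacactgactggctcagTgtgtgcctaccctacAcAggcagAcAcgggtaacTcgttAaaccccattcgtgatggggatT

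Other strong partners have no match to the 45S locus of the build but share sequence with each other. Of the 30 strongest partner loci, 10 share a run of at least 100 bases with at least 95% identity with another of the 30, where runs with more than 20 copies in the genome were left out. They fall into a group of 6 loci with 1384 read pairs in ESC Hi-C and 1590 in NCC Hi-C, and a group of 4 with 1176 and 1192. The first group includes the loci at Lars2, Gphn and Fgfr2, which lie on chromosomes 9, 12 and 7 (the Gphn and Fgfr2 loci are named here after their values were seen). The stretches shown are from chr9:123461841-123461940 at Lars2 (plus strand), chr12:78350979-78351078 in an intron of Gphn (plus strand) and the second locus of chromosome 6, chr6:49236489-49236588 (minus strand). Capitals mark the bases that differ from Lars2, 3 in Gphn and 2 at the locus of chromosome 6.
Lars2: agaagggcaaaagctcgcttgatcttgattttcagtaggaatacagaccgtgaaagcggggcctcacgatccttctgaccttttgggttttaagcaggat
Gphn: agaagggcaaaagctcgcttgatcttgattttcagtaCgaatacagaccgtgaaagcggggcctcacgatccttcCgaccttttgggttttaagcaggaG
Second locus on chromosome 6: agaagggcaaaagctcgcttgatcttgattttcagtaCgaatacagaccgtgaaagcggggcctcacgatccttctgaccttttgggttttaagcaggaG

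The second group includes the loci in introns of Cmss1 and Filip1l and of Jarid2 (named after its value was seen, a cofactor of Polycomb repressive complex 2). The stretches shown are from chr16:57391355-57391454 (plus strand), chr13:44869878-44869977 in Jarid2 (plus strand) and chr8:15519778-15519877 (minus strand), with 2 and 1 bases that differ from the first in capitals.
Cmss1/Filip1l: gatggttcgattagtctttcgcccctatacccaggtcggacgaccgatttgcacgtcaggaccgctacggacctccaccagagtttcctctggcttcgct
Jarid2: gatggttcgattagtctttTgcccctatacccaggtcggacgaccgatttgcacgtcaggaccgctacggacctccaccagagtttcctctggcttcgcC
Second locus on chromosome 8: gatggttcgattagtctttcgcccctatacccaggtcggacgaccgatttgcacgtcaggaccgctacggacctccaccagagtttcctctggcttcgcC

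Whether these runs belong to the 45S unit, and to which part of it, was not tested. The build places only a part of the unit at chromosome 17, and no full unit was used here. Of the other 18 of the 30 loci, 10 share such a run only with places outside the 30, and 8 have no such run within these limits. Places outside the 30 loci with a shared run numbered 124, and 113 of them had 0 read pairs with the 45S locus in both Hi-C libraries. These places include copies of runs from loci in neither group, and they were not split by group.

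About as many read pairs joined the 45S anchor to itself as to the rest of the genome. Of 18063 read pairs with an end at the anchor in ESC Hi-C, 9651 lay inside the anchor, 8168 joined it to another chromosome of the 20, 218 to chromosome 17 outside the zone, 5 to the rest of the zone, and 21 to other sequences. In NCC Hi-C, 8180 of 16886 lay inside the anchor, 8475 joined it to another chromosome and 195 to chromosome 17. Pairs inside the anchor were 46.2% to 53.4% of the total over the 6 libraries. Outside the zone, nearly all partners of the 45S locus were on other chromosomes. Their share was 97.4% (97.0 to 97.7) in ESC Hi-C, 97.8% (97.4 to 98.1) in NCC Hi-C, 97.6% in ESC FGFR1, 98.0% in NCC FGFR1, 98.4% in ESC CTCF and 97.2% in NCC CTCF HiChIP. For the anchors in the 1 Mb on each side of the zone (60 to 105 per library), partners inside this window were left out. Their shares thus lack short-range read pairs, while the 45S share leaves out the 100-kb zone alone. Of the read pairs left, 39.3% were on other chromosomes in ESC Hi-C (753 of 1914). The counts were 636 of 1590 in NCC Hi-C, and the share was at most 44.0% in the HiChIP libraries. The 45S locus was above its neighbors in all 6 libraries (Fisher's exact test, two-sided, highest adjusted p = 1.64e-60). Reads from copies on other chromosomes are placed at this position too. The test therefore cannot tell contacts of this position from contacts of the arrays.

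The read pairs with chromosome 17 itself were few. In ESC Hi-C 2 of the 218, and in NCC Hi-C 0 of the 195, lay within 1 Mb of the locus. A single partner locus, chr17:29742718-29750177, held 84 and 51 of them. Beyond 1 Mb, the share of chromosome 17 read pairs within 5 Mb was 33.8% in ESC and 28.7% in NCC Hi-C, beside 38.7% and 31.4% for the flanking anchors. Without that single locus, a recount chosen after seeing the data, it was 55.3% in ESC and 38.9% in NCC Hi-C, above the flanking anchors, and 33.3% (ESC FGFR1) to 71.4% (ESC CTCF) in HiChIP, where the flanking anchors had 40.3% to 51.1%. These shares were not tested against each other.

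The read pairs with other chromosomes came in 2 forms, a few loci with many read pairs each and a wide spread of partners met once. In ESC Hi-C, 33 partner anchors with at least 10 read pairs held 6375 of the 8168 (78.0%), while 1655 of the 1726 interactions had 1 read pair. In NCC Hi-C, 38 such anchors held 6007 of 8475 (70.9%), and 2297 of 2401 interactions had 1 read pair. In the HiChIP libraries, 15 to 19 such anchors held 71.1% to 76.3%. The strong loci were therefore described separately, and interactions were also counted once each.

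The 10 strongest partner loci, ranked by the lower of the ESC and NCC Hi-C shares, held 56.9% of the 45S read pairs outside the zone in ESC Hi-C and 50.5% in NCC Hi-C. The ranking used the Hi-C values. In the HiChIP libraries, which it did not use, the same 10 loci held 60.9% in ESC FGFR1, 59.6% in NCC FGFR1, 60.5% in ESC CTCF and 57.7% in NCC CTCF HiChIP, and 7 to 9 of them were among the 10 strongest of each of these libraries. From their inter-chromosomal ends, all 10 had at most 1.22 expected read pairs in each Hi-C library. An excess over this in Hi-C was set by the ranking and is a description. In the HiChIP libraries, each was also far above the expectation, which was at most 0.495 read pairs.

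The first of them, chr6:3199753-3202193, lies outside annotated genes close to the start of chromosome 6. It had 1461 read pairs with the 45S locus in ESC Hi-C, 939 in NCC Hi-C, 301 in ESC FGFR1, 378 in NCC FGFR1, 151 in ESC CTCF and 133 in NCC CTCF HiChIP. As a share, this was 17.4% (16.6 to 18.3) in ESC and 10.8% (10.2 to 11.5) in NCC Hi-C. The NCC share was below the ESC share in FGFR1 (17.9% and 20.5%) and CTCF HiChIP (15.6% and 20.1%) too, where the intervals overlapped. Its neighbor in kind, chr8:3753550-3755871, which is also intergenic and also matches the 18S region, had 338, 312, 101, 133, 56 and 53 read pairs in the same order of libraries. Its share was 4.03% in ESC and 3.599% in NCC Hi-C and 6.22% to 7.46% in the 4 HiChIP libraries, whose intervals lay above those of both Hi-C libraries.

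Several strong partners lie inside protein-coding genes. The locus in introns of Cmss1 and Filip1l (chr16:57390497-57392310) had 672 read pairs in ESC and 721 in NCC Hi-C, and 98, 167, 40 and 63 in the HiChIP libraries. Cdk8 (chr5:146260376-146261916, intron), the kinase of the Mediator complex, had 537 and 505 in Hi-C and 79, 127, 35 and 51 in HiChIP. Lars2 (chr9:123461219-123462804, with an exon in the anchor), the mitochondrial leucyl-tRNA synthetase, had 450 and 562 in Hi-C and 91, 159, 50 and 56 in HiChIP. These 3 loci held 5.37% to 8.32% of the 45S read pairs in both Hi-C libraries.

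The locus at Kpna1, an importin alpha, and at the antisense gene Gm15564 (chr16:35980744-35982454) had 392 read pairs in ESC and 486 in NCC Hi-C, and 60, 80, 38 and 38 in HiChIP. Zc3h7a, a zinc finger protein gene, with the miRNA gene Gm23935 (chr16:11143346-11145515) had 239 and 242 in Hi-C, and 38, 45, 22 and 19 in HiChIP. In Hi-C, the NCC share was above the ESC share at Lars2, and at Kpna1, where the intervals overlapped. It lay within the ESC interval at Zc3h7a. In HiChIP, the Kpna1 share was lower in NCC than in ESC with FGFR1 (3.79% and 4.10%) and CTCF (4.46% and 5.06%). The Lars2 share was higher in NCC with FGFR1 (7.53% and 6.21%) and not with CTCF (6.57% and 6.66%). Of the 10 loci, 2 more are intergenic. They are chr6:49235873-49237328, with 230 and 236 in Hi-C and 54, 83, 28 and 45 in HiChIP, and chr10:11491366-11492854, with 261 and 176 in Hi-C and 34, 49, 20 and 18 in HiChIP. At the locus of chromosome 10, the Hi-C share was lower in NCC (2.03%, 1.74 to 2.35) than in ESC (3.11%, 2.75 to 3.51). Whether the reads at these loci came from the loci or from ribosomal DNA that may resemble them was not tested.

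**Figure D1:**
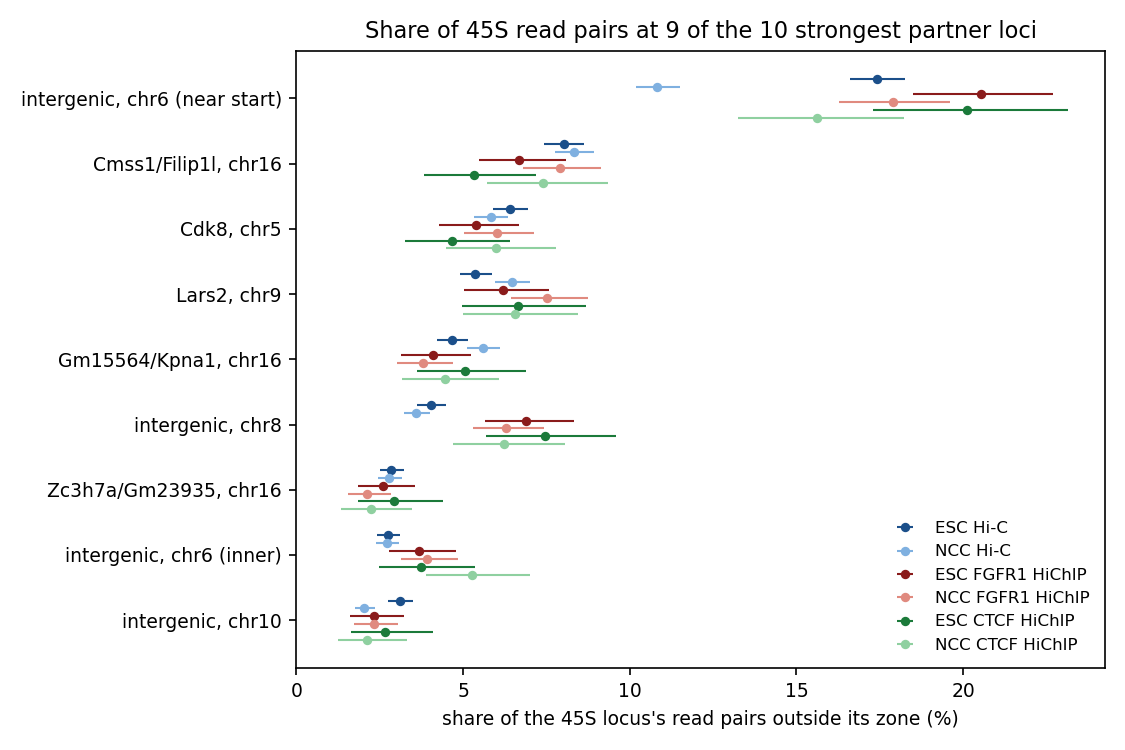
Share of the read pairs of the 45S locus outside its zone (x axis, %) at 9 of the 10 strongest partner loci (y axis) in the 6 pooled libraries, with points for the share and bars for the 95% Clopper-Pearson interval. The locus near the start of chromosome 6 leads in all 6 libraries, from 10.8% in NCC Hi-C to 20.5% in ESC FGFR1 HiChIP, and the intergenic locus of chromosome 8 is higher in HiChIP than in Hi-C.

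Read pairs also joined the 10 loci to each other. Over the 41 pairs of loci that lie on different chromosomes, ESC Hi-C had 820 read pairs where 0.975 were expected from the inter-chromosomal ends of both loci, and all 41 pairs had at least 1. NCC Hi-C had 678 read pairs and 0.716 expected, and 38 of the 41 pairs had at least 1. The HiChIP libraries had 86 to 232 read pairs with 0.174 to 0.392 expected. The 10 loci were chosen by their read pairs with the 45S locus, and read pairs between them were not part of that choice. However, 6 of the 10 match the 45S locus or share a run with another of the 30 strongest loci. Whether these read pairs came from the loci or from ribosomal DNA that may resemble them was not tested.

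Counted by read pairs, the chromosomes of the partners followed the strong loci. On chromosomes 12, 15, 16, 18 and 19 together, the observed share was 1.58 times the expected share in ESC Hi-C (interval 1.53 to 1.63, 2679 of 8168 read pairs), and 1.77 times in NCC Hi-C (1.72 to 1.82, 3117 of 8475). The ratios were 1.32 in ESC FGFR1, 1.36 in NCC FGFR1, 1.37 in ESC CTCF and 1.54 in NCC CTCF HiChIP. All 6 were above 1 (exact binomial test, two-sided, highest adjusted p = 7.03e-07). The tests by read pairs take read pairs of 1 locus as independent, while 33 and 38 partner anchors held most of them in ESC and NCC Hi-C. The p-values by read pairs, here and below, are therefore too small. The expected share is that of all inter-chromosomal ends outside the 45S zone and outside chromosome 17, and was 20.7% to 21.3%. However, chromosome 16, with 3 of the 10 strongest loci, had 4.47 and 5.01 times the expectation in Hi-C, and chromosome 6, with no ribosomal DNA, had 4.003 and 2.79 times. Without chromosome 16, the ratio was 1.02 in ESC Hi-C (adjusted p = 0.487, exact binomial test), 1.16 in NCC Hi-C (adjusted p = 3.88e-08), 1.06 in NCC CTCF HiChIP, and 0.807 to 0.879 in the other 3 HiChIP libraries.

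Counted once per interaction, which gives a strong locus the same weight as a partner met 1 time, the excess spread over 4 of the 5 chromosomes. The ratio for the 5 chromosomes was 1.61 in ESC Hi-C (1.503 to 1.72, 578 of 1726 interactions), 1.82 in NCC Hi-C (1.73 to 1.92, 907 of 2401), 1.37 in ESC FGFR1, 1.55 in NCC FGFR1, 1.77 in ESC CTCF and 1.57 in NCC CTCF HiChIP (exact binomial test, highest adjusted p = 0.00171). Without chromosome 16, it was 1.37 to 1.84 and above 1 in all 6 (exact binomial test, highest adjusted p = 0.00562). In ESC Hi-C, chromosome 12 had 1.81 times the expectation, chromosome 16 had 1.48, chromosome 18 had 1.65 and chromosome 19 had 2.10. In NCC Hi-C, these were 1.80, 2.10, 2.16 and 2.25. Chromosome 15 was at 1.12 (0.910 to 1.37) in ESC and 0.996 (0.823 to 1.19) in NCC Hi-C, and its intervals did not overlap those of chromosomes 12 and 19 in either library. The 14 other chromosomes lay between 0.640 (chromosome 2 in NCC) and 1.05 (chromosome 7 in ESC).

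Over the 6 libraries and 19 chromosomes, 14 of 114 exact binomial tests were called higher (12.3%) and 13 lower (11.4%) with interactions counted once and an adjusted p under 0.05. The 14 higher ones were chromosomes 16 and 18 in 4 libraries each, and chromosomes 12 and 19 in 3 libraries each, and chromosome 15 was called in no library. Counted by read pairs, 27 were called higher (23.7%) and 56 lower (49.1%).

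**Figure D2:**
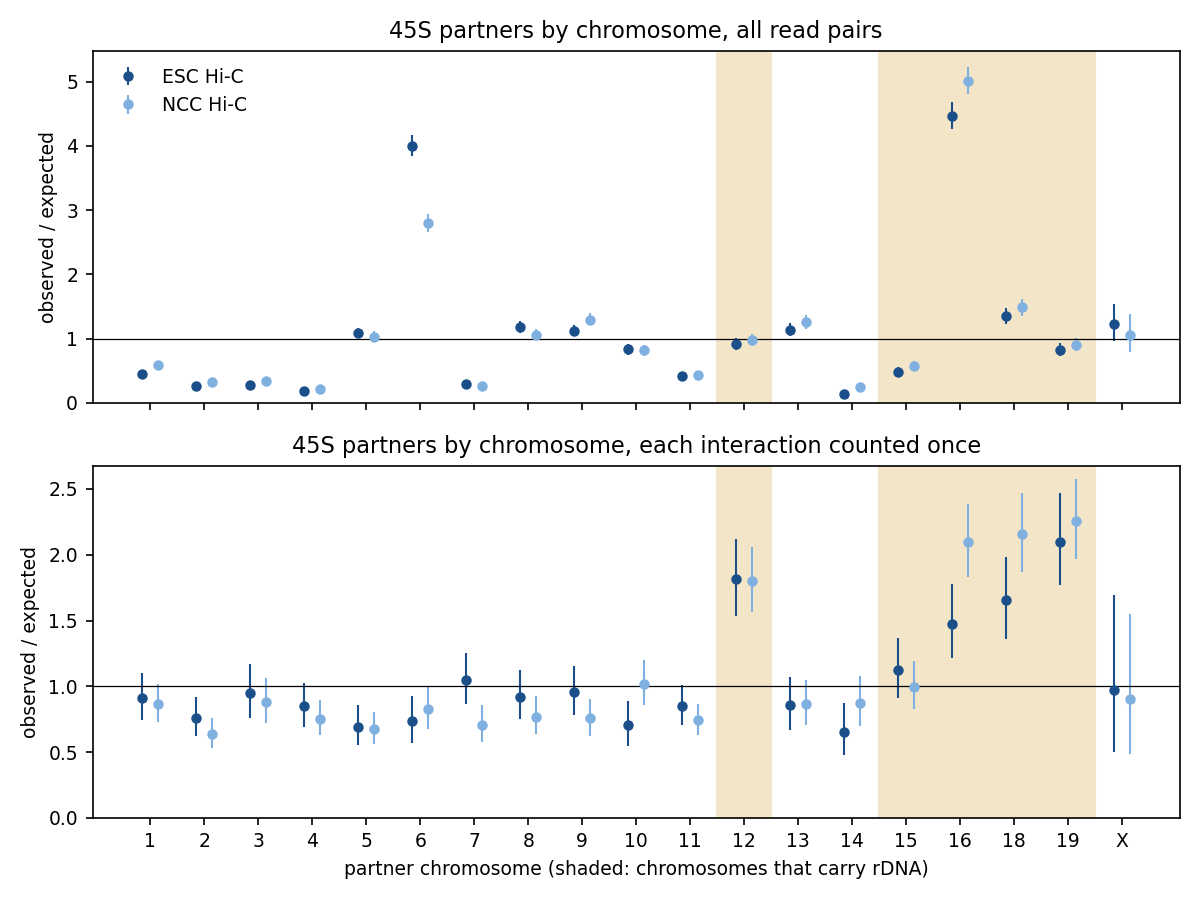
Observed over expected partners of the 45S locus (y axis) on each other chromosome (x axis; shaded are the chromosomes that carry ribosomal DNA) in ESC and NCC Hi-C, by read pairs (top) and with each interaction counted once (bottom); bars are 95% Clopper-Pearson intervals. By read pairs chromosomes 6 and 16 stand out, and counted once chromosomes 12, 16, 18 and 19 lie at 1.48 to 2.25 while chromosome 15 lies near 1.

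With each interaction counted once, the partners gathered toward the centromeres of the ribosomal DNA chromosomes. Counted once, the first 5 Mb of these 5 chromosomes had 5.37 times the expected interactions in ESC Hi-C (4.17 to 6.80, 68 interactions) and 6.77 times in NCC Hi-C (5.57 to 8.15, 111 interactions). From 5 to 10 Mb, the ratios were 4.29 and 4.33, from 10 to 20 Mb 2.93 and 3.43, from 20 to 40 Mb 1.49 and 1.78, from 40 to 80 Mb 1.08 and 1.27, and beyond 80 Mb 0.712 and 0.791. The ratio thus fell with each step of distance in both libraries. On the 14 other chromosomes, the first 5 Mb had 1.39 (0.906 to 2.03) and 1.94 (1.42 to 2.60) times the expectation. From 5 to 10 Mb, they had 1.40 (1.03 to 1.86) and 1.46 (1.12 to 1.87) times. From 10 to 20 Mb, the ratios were 1.62 (1.32 to 1.96) and 1.15 (0.928 to 1.41). They were 0.962 and 0.965 from 20 to 40 Mb, 0.907 and 0.755 from 40 to 80 Mb, and 0.662 and 0.668 beyond 80 Mb.

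Within the 5 chromosomes, the first 20 Mb took 46.9% of the interactions in ESC Hi-C where 19.8% were expected, a ratio of 2.36 (2.16 to 2.57), and 44.3% in NCC Hi-C where 18.7% were expected, a ratio of 2.37 (2.20 to 2.55). In HiChIP the ratios were 2.39 in ESC FGFR1, 1.70 in NCC FGFR1, 2.36 in ESC CTCF and 2.53 in NCC CTCF. On the other chromosomes, the ratios were 1.80, 1.74, 1.81, 1.37, 2.11 and 1.88 in the same order of the 6 libraries, all 12 above 1 (exact binomial test, highest adjusted p = 0.0321). The ratio on the ribosomal DNA chromosomes was 1.31 times that on the others in ESC (1.08 to 1.59, adjusted p = 0.0174) and 1.37 times in NCC Hi-C (1.15 to 1.63, adjusted p = 0.00178), by an exact binomial test. In the 4 HiChIP libraries it was 1.12 to 1.35 times, and the exact binomial test did not separate both kinds of chromosomes there (lowest adjusted p = 0.361).

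By read pairs, the order was the opposite. The first 20 Mb had 1.35 and 1.49 times the expectation on the ribosomal DNA chromosomes in ESC and NCC Hi-C, and 5.17 and 4.31 times on the others. The loci chr6:3199753-3202193 and chr8:3753550-3755871 lie in this zone and held 1461 and 338 of the 2408 read pairs there in ESC Hi-C, and 939 and 312 of 1785 in NCC Hi-C.

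**Figure D3:**
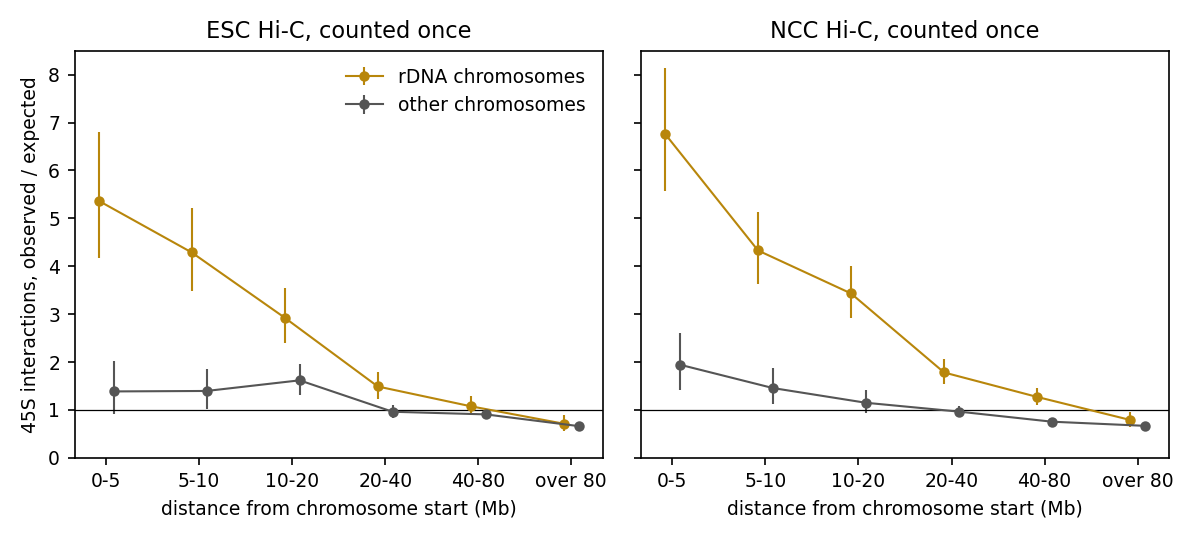
Observed over expected interactions of the 45S locus, each counted once (y axis), by distance of the partner from the chromosome start (x axis, Mb) on the ribosomal DNA chromosomes and on the other chromosomes in ESC and NCC Hi-C; bars are exact 95% Poisson intervals. The ribosomal DNA chromosomes fall from 5.37 and 6.77 in the first 5 Mb to 0.712 and 0.791 beyond 80 Mb, and the other chromosomes start at 1.39 and 1.94.

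Bins of 1 Mb gave the same places. With interactions counted once, 7 of 84 bins with at least 2 expected interactions were called at a ratio of 2 or more in ESC Hi-C (8.33%) and 15 of 311 in NCC Hi-C (4.82%). In the first 20 Mb of the ribosomal DNA chromosomes, they were 6 of 7 bins in ESC and 9 of 11 in NCC. The bin at 3 to 4 Mb of chromosome 19 had 16 interactions in ESC and 19 in NCC Hi-C, 7.54 and 6.57 times the expectation. The bin at 4 to 5 Mb of chromosome 16 was called in NCC Hi-C, with 14 interactions and a ratio of 5.45. These 2 bins were named after their values were seen. The calls rest on the ratio alone, and no called bin lay on chromosomes 12, 15 or 18. Without the partner anchors of 10 or more read pairs, 7 of 112 bins were called in ESC (6.25%) and 19 of 334 in NCC Hi-C (5.69%), with 5 of 7 and 10 of 12 in the first 20 Mb of the ribosomal DNA chromosomes. By read pairs, 36 of 1477 bins were called in ESC (2.44%) and 43 of 1479 in NCC Hi-C (2.91%). The 10 bins with the highest ratios among 545 with at least 5 expected read pairs in both Hi-C libraries each hold a strong locus. They are led by the bins of Cdk8 (93.1 and 89.1 times the expectation), Lars2 (74.9 and 94.4) and Kpna1 (44.6 and 52.2).

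With each interaction counted once, the partners were also above the expectation in gene-poor parts of the genome, taken over all bins. The single bins called above, 7 in ESC and 15 in NCC Hi-C, each hold at least 9 protein-coding genes. Only bins with at least 2 expected interactions could be called, which favors gene-rich bins. In ESC Hi-C, 949 interactions were expected in the third of bins with the most genes and 249 in that with the fewest. The gene content of the called bins therefore cannot be set against the result over all bins. The third of 1 Mb bins with the fewest protein-coding genes (at most 3) had 1.57 times the expected interactions in ESC Hi-C and 1.52 times in NCC Hi-C, and the third with the most (at least 9) had 0.857 and 0.832 times. The ratio of both was 1.83 (1.62 to 2.07) in ESC Hi-C, 1.82 (1.64 to 2.02) in NCC Hi-C, 1.96 in ESC FGFR1, 1.33 in NCC FGFR1, 1.91 in ESC CTCF and 2.06 in NCC CTCF HiChIP (exact binomial test, highest adjusted p = 0.0120). With the first 20 Mb of every chromosome left out, it was 1.97 in ESC and 2.003 in NCC Hi-C. On the chromosomes without ribosomal DNA, it was 2.004 and 1.81. By read pairs, the ratio was 1.11 and 1.08 in Hi-C and 0.580 to 0.850 in HiChIP, so that the direction in HiChIP depends on the strong loci.

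**Figure D4:**
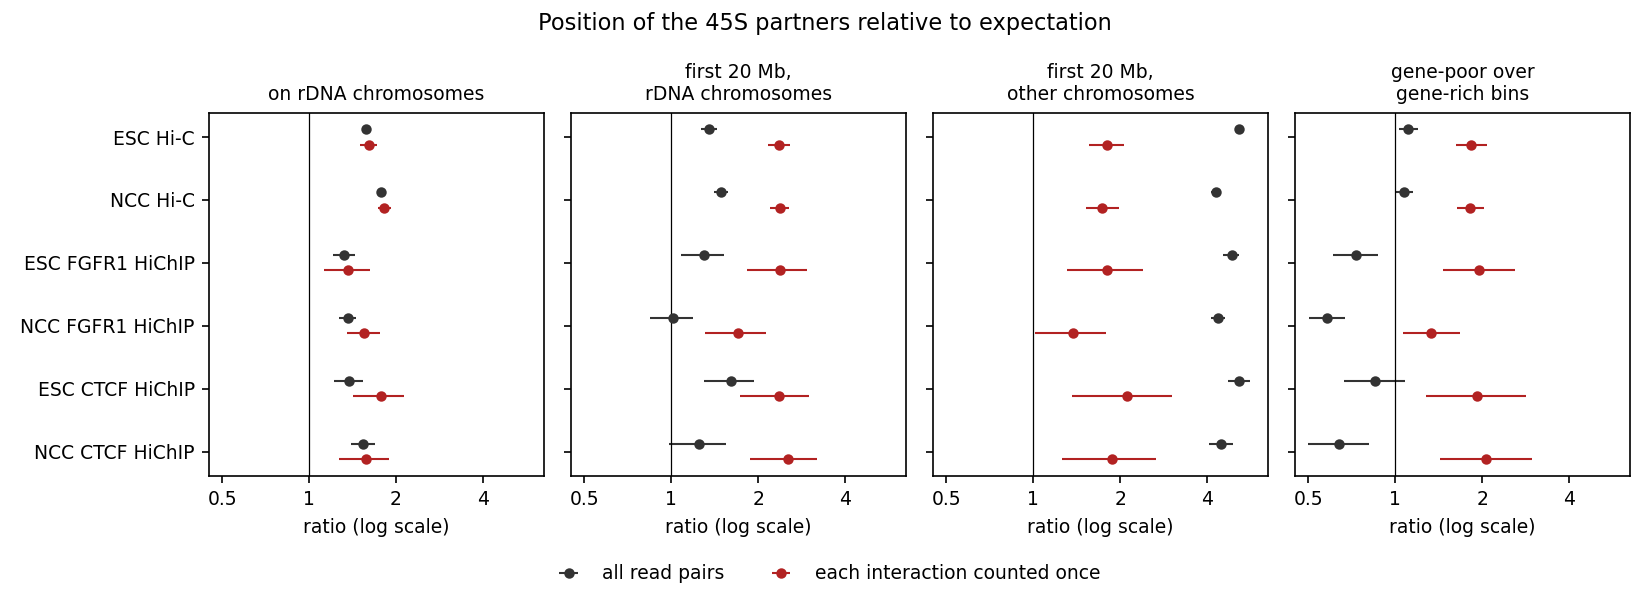
Ratios (x axis, log scale) of the 45S partners in the 6 libraries (y axis), by read pairs and with each interaction counted once: observed over expected on the ribosomal DNA chromosomes, in the first 20 Mb of these and of the other chromosomes, and gene-poor over gene-rich bins; bars are 95% Clopper-Pearson intervals. Counted once, all 24 values lie above 1, from 1.33 to 2.53.

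The lists of genes with a role in ribosome production lay below the expectation over all read pairs and on either side of it once the strong loci were left out. A gene was taken with 10 kb on either side. The 12 genes of RNA polymerase I and its factors found under the symbols searched had 1 read pair with the 45S locus in ESC Hi-C and 3 in NCC Hi-C, 0.172 (0.00435 to 0.957) and 0.522 (0.108 to 1.53) times the expectation. The 92 ribosomal protein genes had 5 and 8, 0.180 and 0.287 times, and the 29 genes of nucleolar RNA processing had 1 and 8. The 175 5S rRNA genes, which RNA polymerase III transcribes, had 3 and 5 (0.209 and 0.330 times). All 20699 protein-coding genes together stood at 0.850 in ESC and 0.932 in NCC Hi-C. The strong loci held most read pairs, and thus the lists were also counted without them. Without the partner anchors of 10 or more read pairs, the RNA polymerase I list was at 0.781 and 1.79, ribosomal protein genes at 0.820 and 0.984, nucleolar processing at 0.462 and 2.67 (1.15 to 5.25), 5S rRNA genes at 0.952 (0.196 to 2.78) and 1.13 (0.368 to 2.64), and all protein-coding genes at 0.922 and 0.909.

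Gene families were likewise counted with and without the strong loci. The 1082 olfactory receptor genes had 14 read pairs in ESC and 15 in NCC Hi-C. This was 0.372 (0.203 to 0.624) and 0.429 (0.240 to 0.708) times the expectation over all read pairs, and 1.69 (0.925 to 2.84) and 1.47 (0.823 to 2.43) times without the strong anchors. The 351 zinc finger genes had 28 and 20 read pairs, 0.280 and 0.198 times over all read pairs, and 1.27 (0.846 to 1.84) and 0.678 (0.414 to 1.05) times without the strong anchors. The 285 vomeronasal receptor genes had 1 and 1 where 9.69 and 7.36 were expected over all read pairs, and 2.13 and 2.15 without the strong anchors. The 68 genes of the histone clusters had 1 and 0 where 3.98 and 3.55, and 0.876 and 1.04, were expected. Of single list members, Zfp423, a zinc finger transcription factor, was the only one with at least 5 expected read pairs over both Hi-C libraries, and it had 0 where 6.53 were expected. Without the strong anchors, 1.68 were expected, and 0 is then within counting error.

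NCC and ESC were compared within each assay. The share of ends at the 45S locus was lower in NCC than in ESC in Hi-C (0.883 times, a description since Hi-C strength chose the locus) and higher in FGFR1 (1.09 times, adjusted p = 1.16e-05) and CTCF HiChIP (1.30 times, adjusted p = 6.18e-19, Fisher's exact test). Without pairs inside a single anchor, these were 0.996, 1.16 and 1.18 times. Fisher's test took each end as independent, although a pair inside the anchor gives both of its ends to the locus. Its p-values for the shares of ends are therefore too small. The HiChIP libraries had 1.23 (ESC FGFR1), 1.37 (ESC CTCF), 1.52 (NCC FGFR1) and 2.01 (NCC CTCF) times the Hi-C share of the same cell type. The ratio on the ribosomal DNA chromosomes, counted once, was 1.13 times as high in NCC as in ESC Hi-C (37.8% and 33.5% of interactions, Fisher's exact test, adjusted p = 0.0141). It was 1.13 times in FGFR1 (adjusted p = 0.451) and 0.889 times in CTCF HiChIP (adjusted p = 0.517) by the same exact test. Differences between these pooled libraries that come from their preparation and differences between the cell types cannot be told apart.

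The 45S ratio was set beside that of the other strong anchors as a background. Of 770 ESC Hi-C anchors with at least 100 inter-chromosomal read pairs outside chromosomes 12 and 15 to 19, the ratio on the ribosomal DNA chromosomes, counted once, had a median of 0.945 (0.679 to 1.27 from the 5th to the 95th percentile), and 10 were at or above the 1.61 of the 45S locus. Of 1268 NCC anchors, the median was 0.942 (0.674 to 1.23), and 5 were at or above 1.82. Among these, 6 of the 10 in ESC and 3 of the 5 in NCC are among the 30 strongest partners of the 45S locus. They include Lars2 (1.87 in ESC) and Cdk8 (2.02 in NCC), each without its read pairs with the 45S locus. The highest of all was chr6:70197824, an anchor outside annotated genes with 3.66 in both libraries, which is not among the 30 partners.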

How the data were processed

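Hi-C, FGFR1 HiChIP and CTCF HiChIP were done in ESC and NCC with 2 biological replicates each. The deposited score of an interaction is a count of its read pairs. The authors aligned reads to mm10 with HiC-Pro, removed duplicates, merged both replicates and called interactions with hichipper without a filter on q. Their methods even the number of valid pairs between cell types when samples are compared, and whether the deposited counts had this step is not given in the sources used here. Libraries are compared by shares.

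Libraries were grouped by cell type and assay. Partners outside the 100-kb zone of the locus were placed at their anchor's midpoint and compared with all inter-chromosomal ends, by read pairs and with each interaction counted once. Two-sided exact binomial and Fisher's exact tests with Clopper-Pearson and Poisson intervals (95%) were computed with scipy 1.17.1. Adjustment by Benjamini-Hochberg was over the 6 libraries, over 3 assays for NCC against ESC (2 for shares of ends), and over 114 tests for single chromosomes. Intervals treat expected shares as known. Partner loci group anchors by 5-kb bins of their midpoints and are given by the span of these anchors, and gene density is protein-coding genes per 1-Mb bin (GENCODE vM21). Sequences were matched with blastn 2.17.0+.

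Named were the 10 strongest loci, the 10 strongest bins, list members with at least 5 expected read pairs, and the anchor itself, beside loci named after their values were seen. The values of 1 of the 10 loci are not reported here. The locus, lists and tests were chosen with earlier results of these data known. The ratio tests were tested on simulated data with independent read pairs and no strong loci. The simulation therefore does not cover the tests by read pairs, where strong loci hold most of the counts. Alternatives changed the expectation, the zones, the chromosomes used and the weight of strong partners.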

Additional observations from a re-analysis of the deposited data

Results flagged for a closer look

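Read pairs of the 45S locus with sequences outside chromosomes 1 to 19 and X numbered 21 in ESC Hi-C, 36 in NCC Hi-C, 11 in ESC FGFR1, 7 in NCC FGFR1, 5 in ESC CTCF and 3 in NCC CTCF HiChIP, and no comparison used them. Most HiChIP ones, and 10 and 13 of those in Hi-C, were with mitochondrial DNA, where 46.5 and 44.1 were expected from its inter-chromosomal ends in ESC and NCC Hi-C. The ratio to that expectation was 0.127 to 0.522 over the 6 libraries.

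The ratio of partners on the ribosomal DNA chromosomes was higher in NCC than in ESC Hi-C, by 1.12 times over all read pairs (Fisher's exact test, adjusted p = 2.15e-07), 1.13 times with each interaction counted once, and 1.17 times without partner anchors of 10 or more read pairs. This compares 1 pooled library with another. Fisher's test over all read pairs takes read pairs of 1 locus as independent. However, 33 and 38 partner anchors held 78.0% and 70.9% of the read pairs with other chromosomes in ESC and NCC Hi-C. The locus near the start of chromosome 6 alone had 1461 and 939. The p-value over all read pairs is therefore too small.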

How the results depend on the processing

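No paired analysis was possible because both replicates of each group are merged in the tables, and no replicate could be left out. Of 317 alternative values, 259 kept their direction and their side of the threshold, or their size. The alternatives that count each interaction once for chromosomes and NCC over ESC, or leave out partner anchors with 10 or more read pairs, were chosen after seeing the data, as were all alternatives of the values counted once. The cause of the changes was not tested. By read pairs, without chromosome 16 the ribosomal DNA ratio was 1.02 in ESC Hi-C, 0.854, 0.879 and 0.807 in ESC FGFR1, NCC FGFR1 and ESC CTCF, and 1.06 in NCC CTCF HiChIP, and with flanking anchors as the expectation it was 0.988 in ESC FGFR1. The first 10 Mb of the ribosomal DNA chromosomes had 0.689 and 0.930 in ESC and NCC Hi-C, 0.673 and 0.496 in FGFR1, and 1.08 and 0.740 in CTCF HiChIP, and the first 40 Mb 1.08 and 0.971 in ESC and NCC FGFR1. For the first 20 Mb there, flanking anchors gave 1.02 in ESC FGFR1, 1.77 in NCC FGFR1 and 1.29 in NCC CTCF, and all ends gave 1.30 in NCC CTCF. In NCC FGFR1 and NCC CTCF this ratio was 1.70 and 2.53 counted once, 1.42 and 2.43 without the strongest 1% of partner anchors, and 1.74 and 2.67 without anchors of 10 or more read pairs. On the other chromosomes it was 1.64 in ESC CTCF without the strongest 1%. Gene-poor over gene-rich was 0.973 and 1.06 in ESC and NCC Hi-C without the first 20 Mb, and 0.692, 0.800 and 0.503 in ESC Hi-C, NCC Hi-C and ESC CTCF between the outermost of 5 classes of bins. In ESC FGFR1, NCC FGFR1, ESC CTCF and NCC CTCF it was 1.96, 1.33, 1.91 and 2.06 counted once, and 2.02, 1.45, 2.05 and 1.80 without anchors of 10 or more.

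Counted once, the ribosomal DNA ratio without the first 20 Mb was 1.08 in ESC FGFR1 and 1.26 in NCC CTCF, and no longer passed. On the other chromosomes, the first 10 Mb had 1.49 in NCC FGFR1, and the first 40 Mb 1.17 in NCC FGFR1 and 1.23 in NCC CTCF. The gene-poor ratio in NCC FGFR1 was 1.28 between the outermost of 5 classes and 1.26 without the ribosomal DNA chromosomes. The NCC over ESC ratio in CTCF HiChIP was 1.12 over all read pairs, 0.889 counted once and 0.9899 without anchors of 10 or more. Without pairs inside a single anchor, the share of ends was 0.996 for NCC over ESC Hi-C, and 1.35, 1.69 and 1.57 for ESC FGFR1, ESC CTCF and NCC FGFR1 over Hi-C. Bins called fell to 15 in ESC and 19 in NCC at 5 expected read pairs, and to 7 and 19 without anchors of 10 or more. Chromosome tests called numbered 14 higher and 13 lower counted once, and 18 lower without anchors of 10 or more.

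Depth limits the HiChIP libraries most: 171 to 478 interactions with other chromosomes stand behind the values counted once, and at most 9 bins had 2 expected read pairs. Flanking anchors hold few read pairs, and the counting error of that expectation is not in the intervals.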
